A study of Mus musculus with 48 samples.

Results

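The effect of chronic intermittent ethanol (CIE) on the hippocampus was measured here as an average over withdrawal, by setting all 24 CIE mice against all 24 control (Ctrl) mice, which are all 48 samples of the series. Mice were adult male C57BL/6J, an inbred strain, with 1 array per mouse and 6 mice per treatment at each of 4 harvests, which were 0h, 8h, 72h and 7d after the last vapor session. CIE mice were kept in ethanol vapor (10 to 13 mg/l) for 16 h a day on 4 days, then went 7 days without ethanol, and this cycle was run 4 times. Before each cycle they were injected with ethanol (1.6 g/kg) and pyrazole (1 mmol/kg), which slows the breakdown of ethanol. Ctrl mice breathed air and were injected with saline and pyrazole, so all 8 groups share the pyrazole. Females and other strains were not part of the design. The averaged effect of a gene is the mean of its 4 differences, CIE minus Ctrl within a harvest, in log2 expression units, and a positive value means higher in CIE mice.

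Repeated vapor exposure and withdrawal is used to model dependence on ethanol, and the hippocampus, which forms memories and takes part in the control of the stress axis, is among the regions that respond to it. Adrenal glucocorticoids rise during intoxication and withdrawal and act on hippocampal genes through a nuclear receptor. Microglia, the resident immune cells of brain, and other cells answer interferon by raising genes of antiviral defence and of antigen presentation, in which MHC class I molecules display peptides from inside the cell and MHC class II molecules display peptides that were taken up. A change that is present at every harvest and a change that is large at 0h and 8h and gone later can give the same average, so both the average and its parts are given here.

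Array medians lay between 6.60 and 6.63 log2 units, and correlations between arrays lay between 0.974 and 0.998. Exactly equal values joined 47 arrays into 6 sets, each with at most 1 mouse of each group, while Ctrl mouse 2 at 0h belonged to none of them. Of the lists of cell type markers, pyramidal cell markers of CA1 and CA3 were well expressed (mean log2 level of the list per mouse 8.83 to 10.91 in Ctrl and 9.86 to 10.99 in CIE mice), as were dentate granule cell markers (7.21 to 10.60 and 7.67 to 10.31), astrocyte markers (10.71 to 11.35 and 10.97 to 11.45) and myelin genes (9.25 to 10.57 and 9.36 to 9.94). In bulk tissue, fewer cells of a type and less RNA per cell cannot be told apart.

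Averaged over the 4 harvests, 1454 of 18193 genes (7.99%) differed between CIE and Ctrl mice, beside 10.3% of all probe sets, with 1126 higher (6.19%) and 328 lower (1.8%) in CIE mice. With the mean of all probe sets of a gene in place of 1, the split was 926 higher and 678 lower. A gene was called where its Benjamini-Hochberg adjusted p in limma was 0.01 or less, with 1 probe set per gene. The changes were small. The median size of a called change was 0.18 (1.13-fold), 68 genes changed by 0.5 or more (40 higher and 28 lower) and 1 by more than 1. Of the 1454 genes, 904 (62.2%) were called at no single harvest, where the standard error is larger (a median over probe sets of 0.08, beside 0.04 for the average). Conversely, 259 genes were called at a harvest and not in the average. The 4 harvests had 1 sign in 875 of the genes called higher (77.7%) and 273 of those called lower (83.2%). Over all genes this share was 24.4%. The choice of called genes by the mean of the same 4 differences raises their shares. For no gene did the 24 CIE and the 24 Ctrl mice fail to overlap.

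To read the average by time, the harvests were taken in pairs. The early mean is the mean effect at 0h and 8h and the late mean is that at 72h and 7d. The early mean had 890 genes (4.89%), with 641 higher (3.52%) and 249 lower (1.37%), and the late mean had 182 (1%), with 115 higher (0.632%) and 67 lower (0.368%). In both means, 44 genes were higher and 33 were lower, and 0 were called in opposite directions. The 4 harvests differed by the moderated F in 28 genes (0.154%). The late effect differed from the early effect in 33 genes (0.181%), and in 31 of these it was nearer 0 late. The 72h harvest gave the smallest change, with a median over the genes called higher of 0.08, where 0h, 8h and 7d gave 0.20, 0.20 and 0.19. The genes called lower changed by −0.18, −0.24, −0.15 and −0.18 at 0h, 8h, 72h and 7d. These medians describe genes chosen by the average and carry no test.

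**Figure D1:**
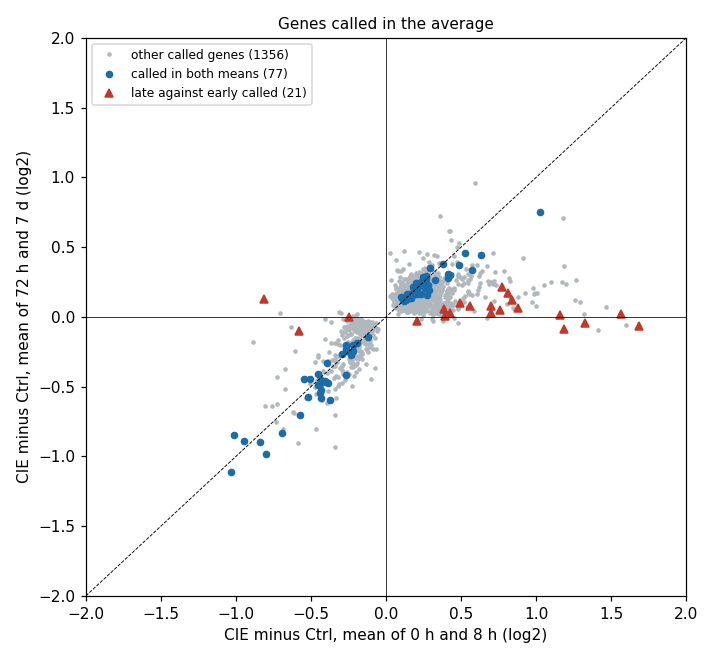
Each point is 1 of the 1454 genes called in the average, with its mean effect at 0h and 8h (horizontal axis, log2) and at 72h and 7d (vertical axis, log2), and the dashed line marks equal effects. The 77 genes called in both means have 1 sign in both, and the 21 genes of the average whose late effect differed from the early one have late effects between −0.10 (Fabp7) and 0.21 (Atf5), each nearer 0 than the early effect.

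The gene with the smallest p in the average was Gtf2a1, which encodes a subunit of the general transcription factor TFIIA. It lay between 8.54 and 9.01 in Ctrl mice (median 8.78) and between 8.83 and 9.42 in CIE mice (median 9.13). Each CIE mouse was paired with each Ctrl mouse of its harvest, which gave 144 pairs, and in 142 the CIE mouse was higher, although the ranges over all harvests overlapped. Gtf2a1 rose 1.30-fold (log2 change 0.38, SE 0.03, adjusted p = 1.78e-10), by 0.30, 0.45, 0.35 and 0.40 at the harvests in order, and was called in the early and in the late mean at 0.38 each. Its other 2 probe sets changed by 0.01 and 0.08 and were not called.

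Ckap5, a microtubule-binding protein gene, showed the same course at a smaller size. It was 9.64 to 9.96 in Ctrl mice (median 9.83) and 9.81 to 10.29 in CIE mice (median 10.04), a rise of 0.25 (SE 0.03, adjusted p = 8.64e-09) with the CIE mouse higher in 140 of 144 pairs. Its other probe sets changed by −0.09 and 0.07 and were not called. Among genes that were called in the average and at no single harvest, Dyrk1a, which encodes a protein kinase of neuronal development, rose by 0.22 (SE 0.03, adjusted p = 1.10e-06). Its 4 harvests gave 0.18, 0.22, 0.25 and 0.23, and another of its 3 probe sets was called at 0.44. A further gene of that kind, Supv3l1, which encodes a mitochondrial RNA helicase, rose by 0.15 (SE 0.02, adjusted p = 4.42e-06), yet its other probe set fell by 0.19 (adjusted p = 0.000558).

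Genes that fell at every harvest included genes of chromatin and of the synapse, chosen by the size or p of their change. Of 40 chromatin regulators 2 rose and 6 fell (median 0.00), beside 6.19% and 1.8% of all genes. Called synaptic genes went in both directions, as given below. Dpf1, a subunit gene of the neuronal BAF chromatin remodelling complex, lay between 8.05 and 9.52 in Ctrl mice (median 8.84) and between 8.00 and 8.97 in CIE mice (median 8.40). It fell 1.41-fold (log2 change −0.50, SE 0.06, adjusted p = 1.04e-07), by 0.50, 0.38, 0.36 and 0.74 over the 4 harvests in order, and its other probe set fell by 0.22 (adjusted p = 0.00307). In 8 of 144 pairs the CIE mouse was higher. Fam81a, a gene whose protein is found at synapses, had log2 changes of −0.30, −0.45, −0.68 and −0.52, an average of −0.49 (SE 0.06, adjusted p = 5.87e-08). Dlgap2, which encodes a scaffold protein of the postsynaptic density, was 8.13 to 10.11 in Ctrl mice (median 9.44) and 7.32 to 9.50 in CIE mice (median 8.41). It fell 1.86-fold (log2 change −0.89, SE 0.11, adjusted p = 1.60e-07), with the CIE mouse higher in 8 of 144 pairs.

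Gabrg3, which encodes a gamma subunit of GABA-A receptors, had changes of −0.12 at 0h, −0.55 at 8h, −0.86 at 72h and a larger one at 7d. Its average was −0.64 (SE 0.08, adjusted p = 3.85e-07), its late mean was −0.93 (SE 0.12, adjusted p = 7.78e-06) and its early mean of −0.34 was not called (adjusted p = 0.0496). The difference of late and early did not pass (adjusted p = 0.0796), and the other 3 probe sets of the gene changed by −0.03 to 0.11 and were not called. With the mean of its probe sets Gabrg3 changed by −0.13 and was not called (adjusted p = 0.156). Of 9 GABA-A receptor subunits 1 rose and 1 fell, beside 6.19% and 1.8% of all genes. The one that rose was Gabrb1, by 0.09, and its other probe sets, at −0.07 to 0.06, were not called. Taok3, a stress-responsive protein kinase gene, fell by 0.26 (SE 0.04, adjusted p = 2.09e-06), with −0.25, −0.29, −0.29 and −0.20 at the harvests and no call at any of them. Its other 3 probe sets changed by −0.10 to 0.06, with no call.

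**Figure D2:**
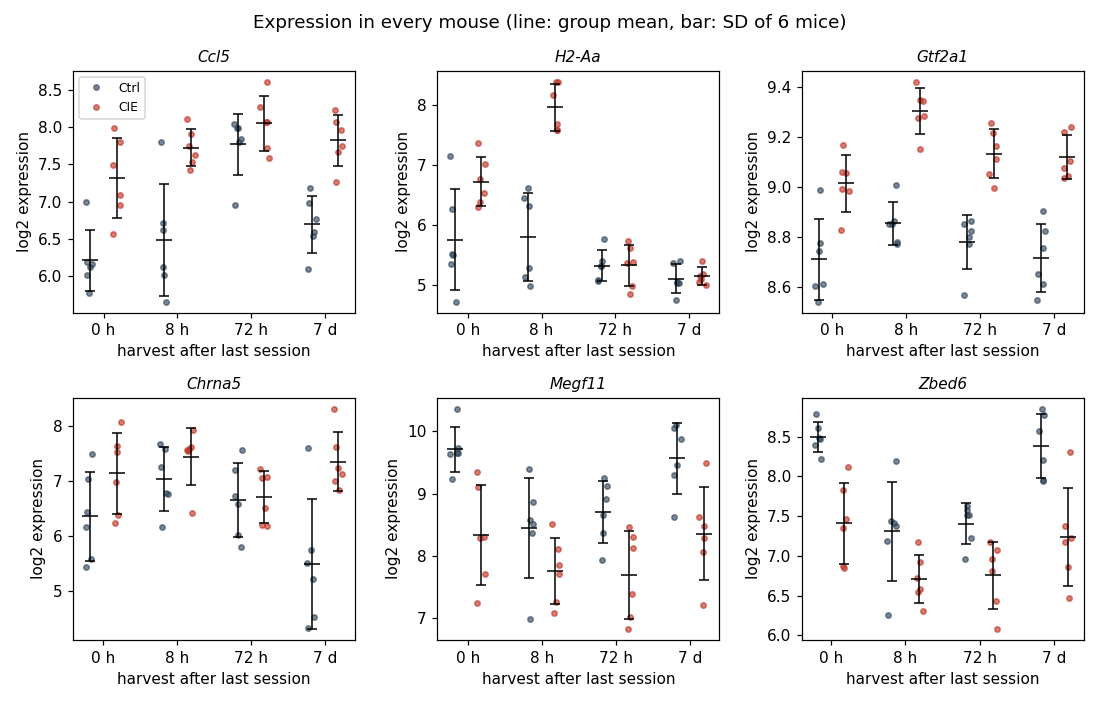
Level of 6 genes in each mouse (vertical axis, log2) by harvest (horizontal axis), with Ctrl mice in dark grey and CIE mice in red. Lines are group means and bars are SDs over 6 mice. Gtf2a1 is higher in CIE mice at all 4 harvests, whereas H2-Aa is 7.97 against 5.80 at 8h and 5.15 against 5.11 at 7d.

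Interferon and antigen presentation genes were among the largest rises of the average. All 9 interferon-inducible GTPases measured were called higher, beside 6.19% of all genes, with a median change of 0.66, where the median over all genes was 0.02. These proteins act on membranes that enclose pathogens. Of 14 MHC class I genes 12 rose (median 0.44), of 7 MHC class II genes 5 rose (median 0.64), and of 35 antiviral interferon-stimulated genes 19 rose (median 0.29), with 0 lower in each of these lists. In the late mean, 0 members of these 4 lists were called, where 0.632% of all genes were called higher, so that this count is near the background. Late medians were 0.11 for the GTPases, 0.15 for class I, 0.00 for class II and 0.11 for the antiviral genes. Without the 8h harvest, 0 of the GTPases, 6 of the class I, 0 of the class II and 9 of the antiviral genes were called in the average of the other 3 harvests. Without 0h these counts were 2, 8, 2 and 8.

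H2-K1, which encodes a heavy chain of class I, was 9.46 to 11.33 in Ctrl mice (median 10.24) and 9.97 to 12.19 in CIE mice (median 11.02). It rose by 0.77 (SE 0.10, adjusted p = 8.40e-07), with harvest values of 1.06, 1.31, 0.15 and 0.58. Related class I genes may share probes with it, and its other 3 probe sets were called higher too. B2m, the light chain gene, was 11.45 to 12.71 in Ctrl mice (median 12.06) and 12.06 to 13.26 in CIE mice (median 12.53), and rose by 0.48 (SE 0.06, adjusted p = 1.09e-06). Tap1, a subunit of the peptide transporter, rose by 0.59 (SE 0.08, adjusted p = 1.78e-06), with the CIE mouse above in 130 of 144 pairs, but its other 3 probe sets changed by 0.01, 0.11 and −0.06 and were not called. H2-Aa, a class II chain gene, moved at the early harvests. It changed by 0.97, 2.17, 0.00 and 0.04 over the harvests, so that its average of 0.80 (SE 0.13, adjusted p = 2.54e-05) is the mean of an early effect of 1.57 and a late effect of 0.02, which differed (adjusted p = 0.00126). Ctrl mice lay between 4.73 and 7.15 (median 5.34) and CIE mice between 4.86 and 8.39 (median 6.02), and without 8h the call ended (adjusted p = 0.143).

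The levels of these lists also moved among Ctrl mice. The mean log2 level of the class I list was 7.76 ± 0.25, 8.06 ± 0.46, 7.91 ± 0.21 and 7.38 ± 0.07 in Ctrl mice at 0h, 8h, 72h and 7d (SD, n = 6), and 8.40 ± 0.17, 8.83 ± 0.18, 7.87 ± 0.14 and 7.70 ± 0.07 in CIE mice. At 7d the 6 CIE mice (7.62 to 7.78) lay above the 6 Ctrl mice (7.29 to 7.48). This was not particular to class I. Antiviral genes were at 6.71 to 7.01 in CIE and 6.52 to 6.70 in Ctrl mice at 7d. Myeloid immune receptors (6.82 to 7.04 and 6.51 to 6.67) and choroid plexus markers (5.85 to 6.16 and 5.36 to 5.82) were apart too. Most lists overlapped at 7d, among them the GTPases (7.03 to 7.57 in CIE and 6.70 to 7.33 in Ctrl mice). The share of all genes without overlap at 7d was not counted, so whether these gaps exceed the background is not known. In the class I list the treatments overlapped throughout at 72h, from 7.61 to 8.18 in Ctrl and 7.66 to 8.06 in CIE mice. The class I mean of CIE mice at 7d lay below that of Ctrl mice at 8h. The GTPase list ran from 7.01 ± 0.24 in Ctrl mice at 7d to 9.91 ± 0.34 in CIE mice at 8h.

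The sequences before the start sites of 4 called genes of these lists are shown because interferon acts through a response element whose core is spelled GAAA, any 2 bases, GAAA. Only genes with a match were shown. RefSeq promoters on GRCm38.p6 were matched by symbol for 14452 of the 18193 genes. Each run is the 250 bases before the start, in the direction of the gene, and capitals mark every match to the core on either strand. B2m is at chr2:122147437-122147686 (plus strand), Gbp2 at chr3:142620413-142620662 (plus strand), Ifit1 at chr19:34640639-34640888 (plus strand) and Irgm1 at chr11:48871421-48871670 (minus strand).
B2m: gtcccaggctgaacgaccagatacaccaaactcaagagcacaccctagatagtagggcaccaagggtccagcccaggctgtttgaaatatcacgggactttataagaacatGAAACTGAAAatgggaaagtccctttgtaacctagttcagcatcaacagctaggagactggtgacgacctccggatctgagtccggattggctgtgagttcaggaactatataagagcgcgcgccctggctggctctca
Gbp2: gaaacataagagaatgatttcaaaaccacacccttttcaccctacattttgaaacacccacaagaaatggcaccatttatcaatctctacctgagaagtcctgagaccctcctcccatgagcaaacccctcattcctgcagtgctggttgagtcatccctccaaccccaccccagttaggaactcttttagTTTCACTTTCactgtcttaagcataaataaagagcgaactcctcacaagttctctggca
Ifit1: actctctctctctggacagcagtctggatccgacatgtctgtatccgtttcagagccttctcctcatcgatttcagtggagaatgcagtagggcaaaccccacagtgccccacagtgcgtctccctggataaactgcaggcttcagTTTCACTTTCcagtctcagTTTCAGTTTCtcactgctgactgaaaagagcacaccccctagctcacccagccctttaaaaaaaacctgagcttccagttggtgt
Irgm1: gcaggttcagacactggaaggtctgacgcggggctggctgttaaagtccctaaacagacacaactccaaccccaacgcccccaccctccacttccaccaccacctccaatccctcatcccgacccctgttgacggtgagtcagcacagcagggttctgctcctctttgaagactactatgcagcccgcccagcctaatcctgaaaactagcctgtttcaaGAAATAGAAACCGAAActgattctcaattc

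In Irgm1 the 2 matches overlap. The core was found in 12 of 35 such windows (34.3%) of the 45 called genes of the 4 lists, of which 31 had a window. It was in 473 of 18109 windows (2.61%) of all genes measured, in 40 of 1140 (3.51%) of the other genes called higher, and in 8 of 324 (2.47%) of genes called lower. The 4 lists were made of known interferon and antigen presentation genes, so their share describes the lists and not the effect of CIE. Members of the lists that were not called were not counted. The 4 genes printed had averaged changes of 0.48 for B2m, 0.76 for Gbp2, 0.67 for Ifit1 and 0.59 for Irgm1. The E-box CACGTG was in 7.38% of all windows, 7.66% of those of genes called higher and 10.8% of those of genes called lower. Of the 10 windows of called glucocorticoid-responsive genes, 1 held a loose form of the glucocorticoid response element (GNACA, any 3 bases, TGTNC), as did 0.304% of all windows. A strict form (AGAACA, any 3 bases, TGTNC), whose matches are all matches of the loose one, was in 0.0939% of all windows and in 0 of the 10. A match is a run of letters and was not tested as a binding site.

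**Figure D3:**
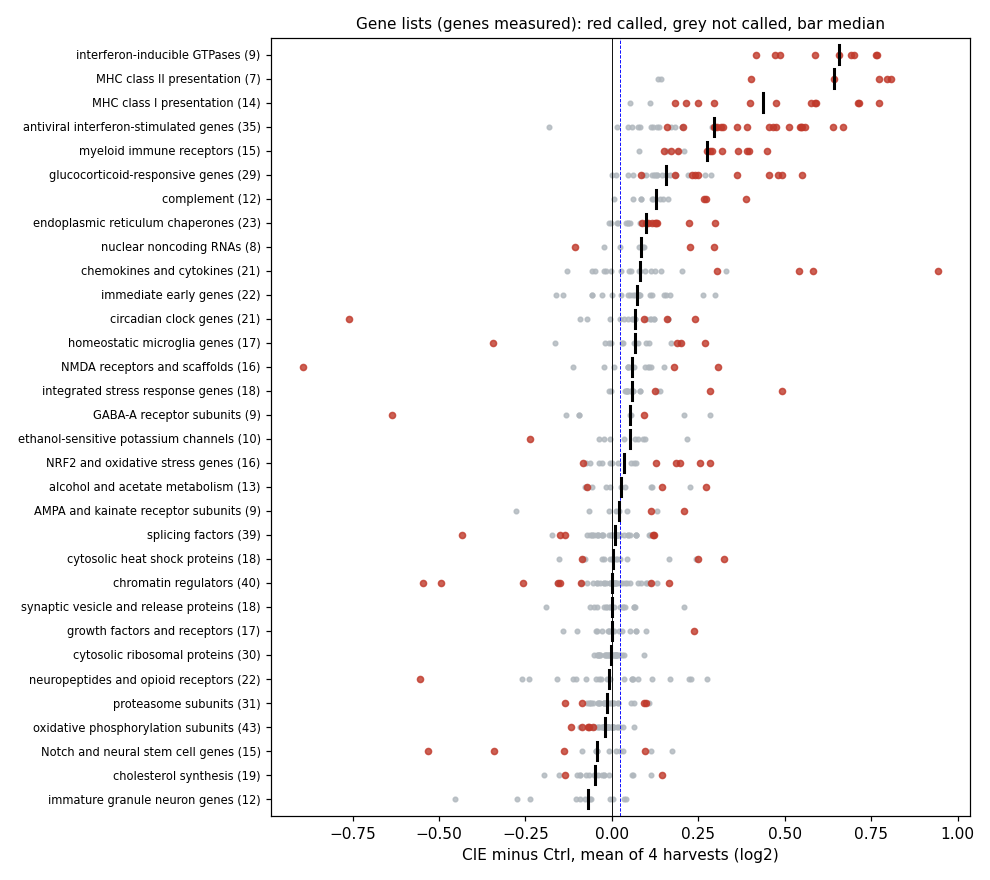
Averaged change (horizontal axis, log2) of each gene in 32 lists, with the number of genes measured in brackets. Red points were called, grey points were not, black bars are list medians and the dashed line is the median over all genes (0.02). The GTPase, MHC and antiviral lists stand to the right, with medians of 0.29 to 0.66.

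Chemokine, immune receptor and lymphocyte genes were among those that rose. The counts of these and the later lists stand beside 6.19% of all genes called higher and 1.8% called lower in the average. Of 15 myeloid immune receptors 11 rose and 0 fell (median 0.27), and of 21 chemokines and cytokines 4 rose. Without 8h these counts were 6 and 2. Ccl5, a chemokine that attracts T cells, was 5.65 to 8.05 in Ctrl mice (median 6.66) and 6.56 to 8.61 in CIE mice (median 7.75). It rose 1.92-fold (log2 change 0.94, SE 0.13, adjusted p = 8.57e-07) and by 1.11, 1.24, 0.29 and 1.13 over the harvests. The small 72h difference went with a Ctrl mean of 7.77 ± 0.41 at that harvest, beside 6.21 to 6.69 at the others (SD, n = 6), and the late mean of 0.71 was not called (adjusted p = 0.0114). Ms4a4b, a membrane protein gene of T cells, was 3.56 to 5.24 in Ctrl and 4.27 to 6.03 in CIE mice (medians 4.19 and 5.35). It rose by 0.89 (SE 0.12, adjusted p = 4.90e-07) and was called in the late mean at 0.75 (SE 0.16, adjusted p = 0.00358). Its other probe set changed by −0.01 (adjusted p = 0.868), and the mean of both changed by 0.44.

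Cd3d, which encodes a chain of the T cell receptor complex, was 5.30 to 5.98 in Ctrl and 5.68 to 6.34 in CIE mice (medians 5.66 and 5.99). It rose by 0.34 (SE 0.05, adjusted p = 7.49e-07), by 0.47, 0.36, 0.20 and 0.36 over the harvests, and was higher in 135 of 144 pairs. Its late mean was 0.28 (adjusted p = 0.00703). It was the 1 of 8 blood cell markers called, and the mean log2 level of these markers per mouse ran from 4.91 to 5.22 in Ctrl and from 4.98 to 5.32 in CIE mice. Globin went the other way. For 4 globin probe sets that carry several gene symbols the changes averaged −0.68 to −0.82, all called, and they were lower in CIE mice at 0h, 8h and 72h and higher at 7d. Ms4a4b and Cd3d are dim, with mean log2 levels under 6, so a filter on dim probe sets at that level leaves both out. The part of blood left in the tissue in the rises of Ccl5, Ms4a4b and Cd3d was not tested.

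Genes of resting microglia moved in both directions. Of 17 such genes 3 rose and 1 fell (median 0.07), and without 0h 1 was called. Ctss, a lysosomal protease gene, rose by 0.27 (SE 0.04, adjusted p = 4.79e-06). Fcrls, a receptor-like gene of microglia, changed by −0.86, −0.78, −0.12 and 0.37, an average of −0.35 (SE 0.06, adjusted p = 1.59e-05). The harvests of Fcrls differed (adjusted p of the F over harvests 5.20e-06). Its average was no longer called without 0h (adjusted p = 0.0666) or without 8h (adjusted p = 0.0300). Lair1, an inhibitory receptor of immune cells, rose by 0.37 (SE 0.05, adjusted p = 8.45e-07) and Ms4a6c by 0.29 (SE 0.04, adjusted p = 5.26e-06), with the CIE mouse higher in 125 and 132 of 144 pairs. The other probe set of Ms4a6c changed by 0.02 and was not called (adjusted p = 0.828). Those of Lair1 changed by 0.20, which was called, and 0.11, which was not. Of 12 complement genes 3 rose (0 without 8h), and the receptor gene C3ar1 rose by 0.27 (SE 0.05, adjusted p = 0.00014), a call that ended without 8h (adjusted p = 0.0139).

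Glucocorticoid-responsive genes rose through the early harvests. Of 29 measured, 10 rose and 0 fell in the average (median 0.16), 15 rose in the early mean, beside 3.52% of all genes, and 0 in the late mean, beside 0.632%, which is near the background. The late median was 0.04. Without 72h, 17 were called. Plin4, a lipid droplet protein gene, was 5.61 to 6.42 in Ctrl mice (median 6.19) and 5.74 to 8.03 in CIE mice (median 6.54). Its average of 0.55 (SE 0.07, adjusted p = 1.95e-07) came from 1.25 and 1.13 at 0h and 8h with −0.04 and −0.14 at 72h and 7d. Tsc22d3, whose product is the leucine zipper protein GILZ, had an average of 0.36 (SE 0.05, adjusted p = 1.79e-06), with 0.70 early and 0.02 late. In both genes the late effect differed from the early one. Arrdc2, which encodes an arrestin-domain protein, rose by 0.49 (SE 0.07, adjusted p = 7.12e-07).

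Chaperones of the endoplasmic reticulum rose in 9 of 23 cases with 0 lower (median 0.10). Sdf2l1, a chaperone partner, rose by 0.30 (SE 0.05, adjusted p = 1.14e-05), with 0.12, 0.53, 0.36 and 0.17 over the harvests. Without 8h, 2 of the 23 were called. Manf, a secreted stress protein of this compartment, had changes of 0.01, 0.47, 0.08 and −0.05 and was not called without 8h (adjusted p = 0.855). Of 16 genes of oxidative defence 5 rose and 1 fell, and without 0h or 8h 2 and 1 were called. Nqo1, a quinone reductase gene, was 6.76 to 7.74 in Ctrl and 7.23 to 7.95 in CIE mice (medians 7.32 and 7.55). It rose by 0.25 (SE 0.05, adjusted p = 7.87e-05), by 0.26, 0.21, 0.19 and 0.36 over the harvests, and was called in the late mean at 0.28 (SE 0.07, adjusted p = 0.00745). Atf5, a transcription factor of the integrated stress response, rose by 0.49 (SE 0.06, adjusted p = 1.01e-07).

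Of 13 genes of alcohol and acetate metabolism, 2 rose and 1 fell. Acss1, the mitochondrial enzyme that activates acetate, rose by 0.27 (SE 0.06, adjusted p = 0.000421), but without 7d it was not called (adjusted p = 0.0623). Its other probe sets changed by −0.07 and 0.04, and the mean of all 3 changed by 0.08 (adjusted p = 0.0896). Of 15 Notch and neural stem cell genes 1 rose and 3 fell, and 2 were called with the sets of arrays as a block. Hes5, a Notch target of radial glia and astrocytes, fell by 0.53 (SE 0.08, adjusted p = 7.22e-06), with −0.67, −1.09, −0.36 and 0.00 over the harvests, and its other probe set fell by 0.67 (adjusted p = 1.31e-07). Without 8h its adjusted p was 0.0102. Fabp7, a fatty acid binding protein gene of the same cells, fell by 0.34 (SE 0.05, adjusted p = 6.80e-07). Of 12 genes of immature granule neurons 0 were called (median −0.07). Of 22 immediate early genes, which report recent neuronal activity, 0 were called (median 0.07), and 1 was called without 0h. Since 7.99% of all genes were called, 0 of 22 is near the background. The average also hides a change of direction. At 0h the list mean was 8.82 ± 0.16 with CIE, below the Ctrl value of 9.00 ± 0.18 (SD, n = 6). By 8h it was above, at 9.35 ± 0.20 against 9.13 ± 0.19. It stayed above at 72h (9.04 against 8.95) and 7d (8.96 against 8.85). These list means were not tested.

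Of 9 AMPA and kainate receptor subunits 2 rose (0 with the mean of all probe sets), and of 16 NMDA receptor and scaffold genes 2 rose and 1 fell. Over all genes, 6.19% were called higher and 1.8% lower. Gria2, an AMPA receptor subunit, was 12.72 to 12.98 in Ctrl and 12.87 to 13.06 in CIE mice (medians 12.84 and 12.96). It rose by 0.11 (SE 0.02, adjusted p = 4.30e-05) with the CIE mouse higher in 131 of 144 pairs, while its other 2 probe sets changed by 0.02 and 0.00. Gria1, another AMPA subunit, rose by 0.21 (SE 0.04, adjusted p = 0.000137; without 7d, 0.0121), and Dlg4, the scaffold protein PSD-95, rose by 0.31 (SE 0.06, adjusted p = 0.000415). Other probe sets of Dlg4 changed by −0.13 and −0.20 and were not called. Pyramidal cell markers of CA1 and CA3 moved the same way, with changes above 0 in 9 of 9, a median of 0.29, 5 at an unadjusted p under 0.05 and 0 called, and their part in these rises was not tested. Of 18 synaptic vesicle genes 0 were called (median 0.00) and of 30 cytosolic ribosomal protein genes 0 were called (median 0.00). With 7.99% of all genes called, 0 in lists of this size is near the background. Of 43 oxidative phosphorylation subunits 5 fell and 0 rose (median −0.02), among them Ndufb10 of complex I, which fell by 0.12 (SE 0.02, adjusted p = 9.09e-06). With the sets of arrays as a block 2 of the 43 were called, and without 8h 1.

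The nicotinic receptor subunit gene Chrna5 had a large average on a wide spread. It was 4.33 to 7.68 in Ctrl mice (median 6.52) and 6.19 to 8.31 in CIE mice (median 7.18), so the treatments overlapped between 6.19 and 7.68. The change of 0.78 (SE 0.20, adjusted p = 0.00407) was made of 0.78, 0.40, 0.06 and 1.86. The call ended without 7d (adjusted p = 0.274), without 0h (0.0186), with the sets of arrays as a block (0.77, adjusted p = 0.0124) and with the mean of its probe sets (0.65, adjusted p = 0.0107). At 7d, markers of striatal neurons were at a mean log2 level of 8.73 ± 0.65 in Ctrl and 8.07 ± 0.14 in CIE mice, and dentate granule cell markers at 9.08 ± 1.49 and 9.46 ± 0.94 (SD, n = 6). Of 6 striatal and 10 dentate markers 0 were called in the average, in which 7d is 1 of 4 harvests. Choroid plexus markers were at 5.61 ± 0.21 in Ctrl and 5.94 ± 0.12 in CIE mice at 7d. Meningeal markers were at 7.17 ± 0.30 and 7.67 ± 0.46, in that order. Pyramidal cell markers were at 9.71 ± 0.61 and 10.47 ± 0.25, and myelin genes at 9.79 ± 0.49 and 9.56 ± 0.15. The part of these differences in markers in the 7d changes of Chrna5, Gabrg3 and other genes, such as Acss1, was not tested.

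**Figure D4:**
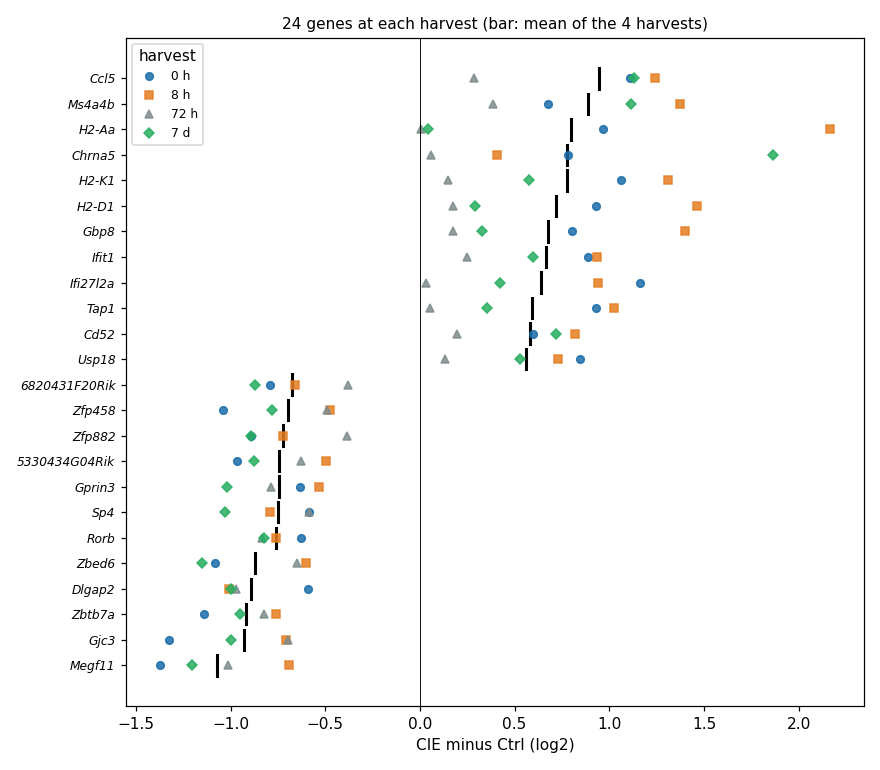
CIE minus Ctrl (horizontal axis, log2) at each harvest (symbols) for the 12 genes with the highest and the 12 with the lowest average among called genes with 1 sign at all harvests, and black bars give the average. Among the higher genes 72h lies nearest 0 in each, and among the lower genes it does so in 4 of 12.

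The largest falls came with a wide spread between mice. Megf11, a cell surface protein gene, was 7.00 to 10.35 in Ctrl mice (median 9.23) and 6.83 to 9.49 in CIE mice (median 8.12). It fell 2.10-fold (log2 change −1.07, SE 0.18, adjusted p = 2.36e-05), by 1.37, 0.69, 1.01 and 1.21 over the harvests, yet its other probe set changed by −0.04. Gjc3, a connexin gene of oligodendrocytes, fell by 0.93 (SE 0.13, adjusted p = 2.34e-06), and it was the 1 of 15 myelin genes called, whose median was −0.06. The other probe set of Gjc3 fell by 0.56 (adjusted p = 0.00428). Zbtb7a, a transcriptional repressor gene, fell by 0.92 (SE 0.13, adjusted p = 2.84e-06) and Zbed6, another transcription factor gene, by 0.87 (SE 0.12, adjusted p = 1.79e-06). The other probe sets of Zbtb7a changed by −0.02 and −0.06 and were not called, and that of Zbed6 fell by 0.55. Rorb, an orphan nuclear receptor gene counted among the clock genes, fell by 0.76 (SE 0.10, adjusted p = 3.66e-07), while its other 2 probe sets changed by −0.16 and 0.16 and were not called. Of the 21 clock genes measured, 3 rose and 1, Rorb, fell (median 0.07).

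Probe sets that represent their gene and probe sets that do not were called in different directions. Among the 1454 called genes 22.6% were lower in CIE mice, whereas 1350 of 2225 other called probe sets of named genes (60.7%) and 674 of 899 called probe sets with no symbol (75%) were lower. Over all 45037 probe sets, 2261 were higher (5.02%) and 2391 lower (5.31%). The genes called lower had 523 further probe sets, of which 61 were called lower too and 23 were called higher. The genes called higher had 1315, of which 186 were called higher and 91 lower. Csnk2a1, a subunit of casein kinase 2, fell by 0.64 (SE 0.09, adjusted p = 1.79e-06) and 3 of its other probe sets fell by 0.48 to 0.82, while 2 changed by 0.01 and 0.10 and were not called.

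Of 8 nuclear noncoding RNAs 2 rose and 1 fell (median 0.08), and with the sets of arrays as a block 1 was called. Neat1, a scaffold of nuclear paraspeckles, rose by 0.23 (SE 0.05, adjusted p = 0.00137), with 0.13, 0.56, 0.13 and 0.08 over the harvests. Without 8h it was not called (adjusted p = 0.219). The other probe set of Neat1 changed by −0.06 (adjusted p = 0.243), and the mean of both changed by 0.08 (adjusted p = 0.0493). Meg3, an imprinted RNA named here after its value was seen, changed by −0.02 (adjusted p = 0.857). Malat1, an RNA of nuclear speckles, gave different values by probe set. The probe set that represents it changed by −0.11 (adjusted p = 0.00742, and 0.0171 with the sets of arrays as a block) and another by 0.05 (not called), while 4 others fell by 0.97 to 1.26, with adjusted p from 3.09e-05 to 0.000143. The last changed by −0.39 (adjusted p = 0.0193). The mean of its 7 probe sets was 10.99 ± 0.35, 9.83 ± 0.60, 9.91 ± 0.28 and 10.70 ± 0.29 in Ctrl mice at 0h, 8h, 72h and 7d (SD, n = 6), and 9.96 ± 0.58, 9.46 ± 0.36, 9.36 ± 0.47 and 9.82 ± 0.56 in CIE mice. Megf11 was likewise highest in Ctrl mice at 0h and 7d, at 9.71 and 9.56 beside 8.45 at 8h and 8.70 at 72h. The part of the unspliced or nuclear RNA in a sample in the genes called lower was not tested.

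**Figure D5:**
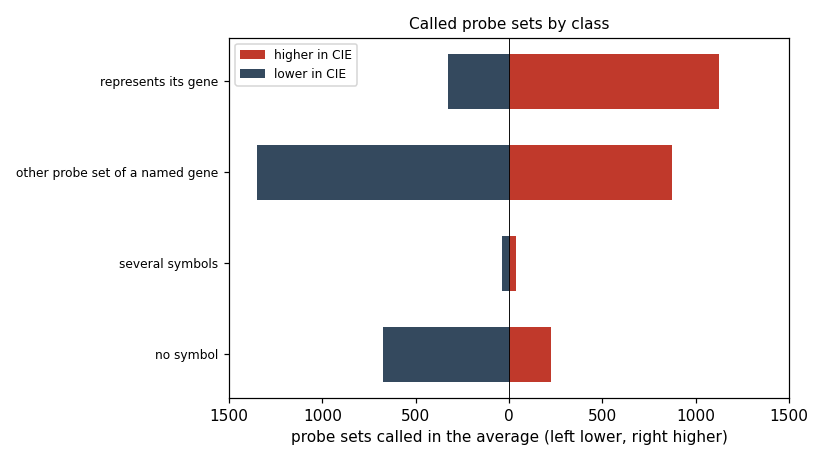
Number of probe sets called in the average (horizontal axis), lower in CIE mice to the left and higher to the right, by class of probe set. Probe sets that represent a gene are mostly higher (1126 against 328), and those with no symbol are mostly lower (674 against 225).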

How the data were processed

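RNA of 48 hippocampi, 1 mouse per array, was hybridised to Affymetrix whole-genome mouse 3′ arrays. The authors deposited log2 RMA values. Per the study's methods they were background corrected and quantile normalized within hybridization batches, quantile normalized over all arrays, and adjusted for hybridization group with ComBat. The versions of these tools are not given here. The batches are not in the labels, so that adjustment could not be examined.

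The values were fitted with limma 3.58.1 in R 4.3.3, with a mean for each of 8 groups and two-sided contrasts. P-values were adjusted by Benjamini-Hochberg over all 45037 probe sets, and calls were made at 0.01. A gene was represented by the probe set with the highest mean among those with its symbol alone, with _x_at sets used only where no other existed. Sets of arrays were joined where at least 5 values were equal within 1e-08. They are not a labelled batch.

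Named genes were those with the largest averaged changes of 1 sign, up to 4 called genes per list with the smallest p, those called at no single harvest, those called by the F over harvests, and those called in both the early and the late mean with the smallest late p. The text names a part of these. Other choices of fit, probe set, harvest and mouse were tried. Members and lists were chosen with earlier results of these data known. The fits were tested on simulated data. The number of arrays limits the precision.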

Additional observations from a re-analysis of the deposited data

Results flagged for a closer look

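The CIE effect differed among the 4 harvests for 10 of the 127 named genes, by the moderated F in limma, beside 0.154% of all genes. Some named genes were chosen by this F, which raises the count. The adjusted p was 2.90e-06 for Plin4, 5.20e-06 for Fcrls, 0.000852 for Tsc22d3 and 0.00124 for Manf. It was 0.00161 for Srxn1, an enzyme that repairs peroxiredoxins, 0.00179 for H2-Aa and 0.00265 for Ciart, a repressor of the clock. It was 0.0043 for Fcgr3, an antibody receptor, 0.0067 for Erap1, which trims peptides for class I, and 0.00981 for Fabp7.

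The late effect differed from the early effect for 16 of the 127 named genes, beside 0.181% of all genes. The choice of some named genes by the F can raise this count too. The class II genes H2-Eb1, H2-Aa, Cd74 and H2-Oa had late minus early log2 changes of −1.75, −1.54, −1.37 and −0.71. The interferon-inducible GTPases Irgm1 and Ifi47 had −1.15 and −0.81, and Erap1 had −0.40. The glucocorticoid-responsive genes Plin4, Tsc22d3 and Arrdc2 had −1.28, −0.68 and −0.64. Sult1a1, a sulfotransferase gene, had −0.72, Atf5 −0.56, Fcgr3 −0.48 and Srxn1 −0.39. Fcrls and Fabp7, which were lower early, had 0.94 and 0.48.

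Single mice lay far from the other 5 of their group in 4 of 48 groups examined over 6 genes, where chance gives about 1 in 20. The gap to the nearest mouse over the range of the group was 0.658 for Ccl5 in Ctrl mouse 20 at 0h and 0.770 for Ccl5 in Ctrl mouse 6 at 72h. It was 0.699 for Gtf2a1 in Ctrl mouse 24 at 72h and 0.744 for Chrna5 in CIE mouse 23 at 8h. Each exceeds Dixon's critical value for 6 mice. The averages of these 3 genes were called without any 1 mouse.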

How the results depend on the processing

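The count of called genes, 1454, stayed within 1.5 times under an additive fit (1319), array sets as a block (1060), array weights (1870), a filter on dim probe sets, a further quantile normalization, centring, a trended robust prior, the mean of all probe sets (1604) and without 72h (1603). At FDR 0.05 it was 2842 (2199 higher and 643 lower). Without 0h it was 877 (650 higher), without 8h 758 (593 higher and 165 lower) and without 7d 813 (578 higher). With the mean of all probe sets, 678 genes were lower. Of the probe sets 8105 were called at FDR 0.05 (4400 higher and 3705 lower), 2905 without 0h (1450 and 1455), 3043 without 8h (1186 higher) and 2614 without 7d (1203 and 1411). Fits with array sets as a block used the 47 arrays of the 6 sets, so they also left out Ctrl mouse 2 at 0h. In the block fit the early mean had 591 genes, the late mean 90, late against early 13 and the F 14. With array weights the late mean had 343, late against early 65 and the F 134. At FDR 0.05 the early mean, late mean, late against early and F had 1829, 720, 106 and 190.

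Without 1 mouse at a time, 4106 to 5656 probe sets (1983 to 2851 higher and 2123 to 2805 lower) and 1276 to 1828 genes (985 to 1446 higher and 286 to 382 lower) were called in the average, 694 to 1171 genes in the early mean, 90 to 282 in the late mean, 22 to 49 late against early and 16 to 45 by the F. The late count moved by over 1.5 times without Ctrl mice 24 (112), 52 (94) or 68 (101) at 72h, Ctrl mice 18 (90), 22 (104) or 46 (282) at 7d, CIE mice 35 (90), 61 (109) or 71 (92) at 72h, or CIE mice 7 (92) or 45 (104) at 7d. The F count did so without Ctrl mouse 66 at 8h (45), 16 at 72h (18) or 70 at 7d (43), or CIE mouse 43 at 0h (16) or 71 at 72h (16).

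Of 127 named genes, 22 lost the call with array sets as a block and 57 without 8h. With the mean of all probe sets 28 lost it and 6 changed sign, namely Laptm5 (−0.0043), Clock (−0.0036), Rian (−0.13), Dlg4 (−0.0063), Slc1a2 (−0.32) and Supv3l1 (−0.022). The cause of these differences was not tested. Counts of called members per list moved by over 1.5 times in 133 of 559 comparisons with other settings and 190 of 2064 without 1 mouse, and list medians moved in 1 of 559. No paired analysis was possible because each mouse carries its own number in the labels, so replicate numbers pair no mice, and the sets of arrays served only as the block above.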
